A study of Mus musculus with 12 samples.

Results

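The miRNAs described here are the products of the miR-17-92 cluster together with miR-18b, a close copy of miR-18a that is encoded on the X chromosome. They were chosen by name, as the mouse miRNAs of the array called miR-17, miR-18a, miR-18b, miR-19a, miR-19b, miR-20a or miR-92a with either arm. This gave 12 of the 696 mouse miRNA names on the array, of which 9 were detected on at least 1 array. The 12 names were mmu-miR-17-3p, mmu-miR-17-5p, mmu-miR-18a-3p, mmu-miR-18a-5p, mmu-miR-18b-5p, mmu-miR-19a-3p, mmu-miR-19a-5p, mmu-miR-19b-3p, mmu-miR-20a-3p, mmu-miR-20a-5p, mmu-miR-92a-2-5p and mmu-miR-92a-3p. The group was proposed because mmu-miR-18b-5p and mmu-miR-18a-3p stood out between the myopic and the control retina in these same arrays, so the members are given in that contrast as a description and no test of it is used.

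The study asked which miRNAs change in the eye when form vision is withheld. C57BL/6J mice wore a frosted plastic diffuser over the right eye for 10 days from postnatal day P24 to P34, and the uncovered left eye of the same mice served as the control. Retina and sclera were dissected from both eyes, and each of the 12 RNA samples was a pool of tissue from 3 eyes, hybridised to 1 single-colour Agilent mouse miRNA array. There were 3 control retina, 3 myopic retina, 3 control sclera and 3 myopic sclera arrays. The myopic and control pools therefore came from the same animals, and the p-values below measure the spread among these pools.

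A miRNA is cut as an RNA duplex from a hairpin precursor, and either arm (5p or 3p) can be kept to guide repression of messenger RNAs, which it recognises mainly through the seed near its 5′ end. The miR-17-92 cluster is transcribed as 1 primary transcript and is known as an oncogenic cluster that promotes proliferation and blocks apoptosis, and that is needed in normal development. Duplication gave it a pair of paralogs, the miR-106a-363 cluster, which holds miR-18b and miR-20b, and the miR-106b-25 cluster, which holds miR-93. In the RefSeq annotation of GRCm38.p6 the 6 hairpins of the miR-17-92 cluster lie within chr14:115043684-115044496 on the plus strand, a stretch of 813 bases. The 6 hairpins of the miR-106a-363 cluster lie within chrX:52741697-52742563 on the minus strand, a stretch of 867 bases. Both clusters hold a hairpin for miR-19b and for miR-92a, and the mature mmu-miR-19b-3p and mmu-miR-92a-3p of each are the same, so the array could not tell which cluster their signal came from.

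The mature sequences are shown first because they decide which miRNAs the probes could tell apart and which share a seed. They were taken from RefSeq, which held 11 of the 12 names, and are written 5′ to 3′ with the seed, bases 2 to 8, in capitals. The first seed group comprises miR-17, miR-20a and their relatives on the other clusters:
mmu-miR-17-5p: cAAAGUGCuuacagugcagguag
mmu-miR-20a-5p: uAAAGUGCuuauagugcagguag
mmu-miR-20b-5p: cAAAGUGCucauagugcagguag
mmu-miR-93-5p: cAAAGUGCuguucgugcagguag
mmu-miR-106b-5p: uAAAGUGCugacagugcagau
The second is formed by miR-18a and miR-18b:
mmu-miR-18a-5p: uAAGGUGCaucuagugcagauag
mmu-miR-18b-5p: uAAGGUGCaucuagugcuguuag
The third group is formed by miR-19a and miR-19b:
mmu-miR-19a-3p: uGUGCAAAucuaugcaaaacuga
mmu-miR-19b-3p: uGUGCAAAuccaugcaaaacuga
The fourth seed group includes miR-92a, miR-25 from the miR-106b-25 cluster, and the detected miR-32 and miR-92b, which lie outside the 3 clusters:
mmu-miR-92a-3p: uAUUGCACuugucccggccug
mmu-miR-25-3p: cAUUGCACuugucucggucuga
mmu-miR-32-5p: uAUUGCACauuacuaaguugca
mmu-miR-92b-3p: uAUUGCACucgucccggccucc
The opposite arms have other seeds, that of mmu-miR-17-3p being shared with mmu-miR-20b-3p, which was not detected. The detected member arms are shown because mmu-miR-18a-3p and mmu-miR-20a-3p enter the results:
mmu-miR-17-3p: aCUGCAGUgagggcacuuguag
mmu-miR-18a-3p: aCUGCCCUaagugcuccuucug
mmu-miR-20a-3p: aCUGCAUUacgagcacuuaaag

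Counted from the 5′ end, mmu-miR-18a-5p and mmu-miR-18b-5p differ by A18U and A20U, outside the seed and inside the stretch that the probes cover. The longest probes for them, each of 19 bases and written 5′ to 3′ as DNA with the bases opposite these positions near their 5′ end, were:
probe for mmu-miR-18a-5p: ctatctgcactagatgcac
probe for mmu-miR-18b-5p: ctaacagcactagatgcac
Among the members, the closest pair was mmu-miR-19a-3p and mmu-miR-19b-3p, with the single difference U11C. Between mmu-miR-20a-5p and mmu-miR-20b-5p the differences were U1C and U10C, and between mmu-miR-20a-5p and mmu-miR-106b-5p they were U10G, U12C and G20A. How far a probe also bound a near neighbour was not tested.

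The values are total gene signals, background-subtracted fluorescence intensities in arbitrary units. The scanner software sums them over the detected probes of a miRNA, those whose signal exceeded 3 times its error. A miRNA is called not detected where no probe did. Signals of different miRNAs come from different probes and are not compared as levels. Between 353 and 401 miRNAs were detected per retina array and between 274 and 317 per sclera array, and 443 were detected on at least 1 array and tested. Control sclera 3 was the dimmest array, with a 75th percentile (over the miRNAs seen on every array, as a multiple of the geometric mean of the 12) of 0.359, while the other sclera arrays were at 0.567 to 1.04 and the retina arrays at 1.33 to 1.84. The tissue labels matched their markers: the 5 neural retina miRNAs of a fixed list summed to between 197559 and 297315 in the retina and to between 735 and 13205 in the sclera, and the 5 fibroblast and smooth muscle miRNAs to between 106 and 373 in the retina and between 4996 and 14693 in the sclera. All 5 neural retina markers were detected on each sclera array, control sclera 3 having the lowest sum, and the part of carried-over retina in the sclera signals below was not tested. In pooled tissue, fewer cells of a type and less RNA per cell cannot be told apart.

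Of the cluster, 5 miRNAs were detected on all 12 arrays: mmu-miR-17-3p, mmu-miR-19a-3p, mmu-miR-19b-3p, mmu-miR-20a-5p and mmu-miR-92a-3p. As the signals stood, 4 of them were brighter on each retina array than on any sclera array, whereas mmu-miR-20a-5p overlapped between the tissues. Retina arrays were brighter in general: over the 246 miRNAs seen on every array the median log2 difference was 1.35 without normalization. The share of these 246 without overlap was not counted, so the 4 only describe the members. The signal of mmu-miR-92a-3p was 1285, 1358 and 1748 in the control retina, 1564, 1953 and 1148 in the myopic retina, 448, 462 and 211 in control sclera and 280, 286 and 263 in myopic sclera. The signal of mmu-miR-19b-3p was 1244, 1503 and 2225 in the control retina, 1574, 2096 and 1291 in the myopic retina, 576, 627 and 144 in control sclera and 366, 376 and 348 in myopic sclera. Both are expressed broadly across tissues, and here the lowest retina array lay above the highest sclera array for each.

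For mmu-miR-19a-3p the signal was 130, 170 and 247 in the control retina, 170, 231 and 139 in the myopic retina, 57.1, 61.5 and 6.82 in control sclera and 38.8, 39.8 and 31.9 in myopic sclera. The tissues did not overlap, and control sclera 3 was far below the other sclera arrays. For mmu-miR-17-3p it was 79.6, 90.8 and 99.3 in the control retina, 87.2, 110 and 71.0 in the myopic retina, 18.99, 21.3 and 8.11 in control sclera and 13.6, 9.84 and 10.7 in myopic sclera. This arm, often treated as the passenger of the miR-17 duplex, was detected everywhere, with 1 of its 2 probes detected on the 6 sclera arrays. For mmu-miR-20a-5p the signal was 250, 328 and 521 in the control retina, 341, 437 and 258 in the myopic retina, 265, 275 and 79.3 in control sclera and 159, 178 and 163 in myopic sclera. Control sclera 1 and 2 thus reached the level of the lowest retina arrays, which none of the other 4 did.

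**Figure D1:**
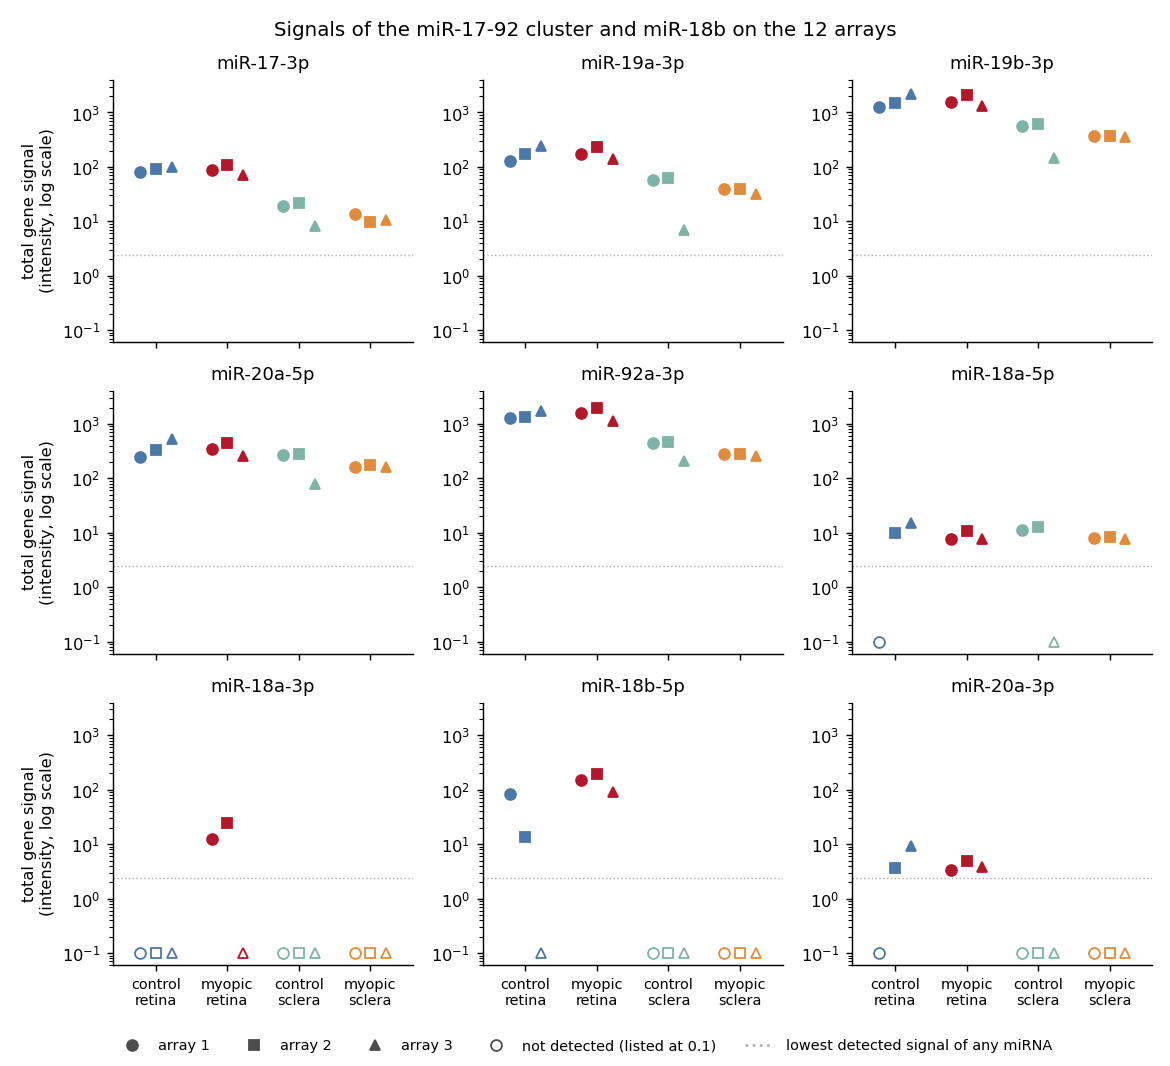
Total gene signal (intensity, log scale) of each detected miR-17-92 or miR-18b miRNA on the 12 arrays, in control retina, myopic retina, control sclera and myopic sclera, where 1 point is 1 array of 3 pooled eyes symbols give the array number, and open symbols at the bottom mark arrays on which the miRNA was not detected. The 5 miRNAs detected on all 12 arrays fill every group, mmu-miR-18b-5p has filled points in the retina groups alone, and mmu-miR-20a-5p overlaps between the tissues.

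After quantile normalization, which gives all arrays the same distribution, the tissues were compared over all 443 miRNAs with limma, which fits a linear model and shrinks each estimate of the spread toward a common value. Calls needed a 2-fold difference or more together with an adjusted p-value below 0.05. Called between retina and sclera were 3 of the 9 members, all higher in the retina. Over all 443 miRNAs, 60.9% were called in either direction and 34.8% were called higher in the retina, so that the share among the members was below the first and near the second background. The median log2 difference was 0.96 over the 9 members and 0.40 over the 443 miRNAs. Of the 3 called, mmu-miR-18b-5p and mmu-miR-20a-3p passed the detection filter through the retina alone, so these counts and medians only describe the members. The only called member detected on all arrays was mmu-miR-92a-3p, which averaged 10.16 ± 0.10 (log2, SD, n = 6) in the retina and 9.09 ± 0.19 (SD, n = 6) in the sclera. Its log2 difference was 1.07 (standard error 0.10, limma adjusted p = 4.2e-06), and it was called in 24 of 26 settings, with adjusted p-values from 5.6e-08 to 0.034.

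The other 4 stayed under a 2-fold difference after normalization. Higher in the retina were mmu-miR-19b-3p by 0.96 on the log2 scale (standard error 0.15, limma adjusted p = 2.8e-04) and mmu-miR-17-3p by 0.66 (standard error 0.15, adjusted p = 0.0029). The difference for mmu-miR-19a-3p was 0.43 (standard error 0.27, adjusted p = 0.17), which did not pass. The sign was opposite for mmu-miR-20a-5p, at -0.52 (standard error 0.20, adjusted p = 0.039, and 0.056 with pool number as a replicate block, within a range of 7.9e-05 to 0.53 over all settings), but its direction depended on the scaling, since it was 0.99 without normalization. The only one of these 4 whose call changed when 1 array was left out was mmu-miR-19b-3p, which passed the fold change without control retina 1 (1.02), control sclera 1 (1.03) or control sclera 2 (1.02).

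The sizes and signs need a reference, because the scaling moved all miRNAs. The median log2 difference between retina and sclera of the 246 miRNAs seen on every array was -0.24 after quantile normalization, 0.24 after scaling by the 75th percentile of these miRNAs and 1.35 without normalization. Relative to that median, the members detected on every array stood higher in the retina, except mmu-miR-20a-5p. This held over these settings and with scaling by the 75th percentile of all names. The order of these members depended on the normalization. After quantile normalization mmu-miR-92a-3p stood 1.32 above the median on the log2 scale, mmu-miR-19b-3p 1.21, mmu-miR-17-3p 0.91 and mmu-miR-19a-3p 0.67. Under the other 3 settings, which scale each array linearly and so give the same relative values, mmu-miR-17-3p stood at 1.43, mmu-miR-19a-3p at 1.09, mmu-miR-92a-3p at 0.90 and mmu-miR-19b-3p at 0.78. By contrast mmu-miR-20a-5p stood below the median miRNA, at -0.28 after quantile normalization and -0.36 under the linear scalings.

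**Figure D2:**
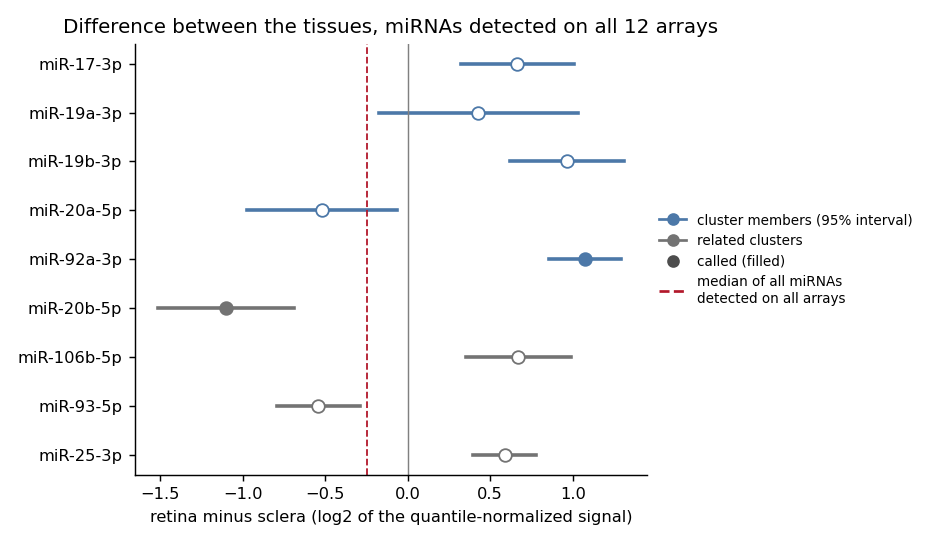
Log2 difference between retina and sclera (positive is higher in the retina) with its 95% confidence interval from limma for the 5 cluster members and 4 relatives detected on all 12 arrays, with filled points for calls and a dashed line at the median of all such miRNAs. The interval of mmu-miR-92a-3p lies from 0.86 to 1.29, and those of mmu-miR-20a-5p, mmu-miR-20b-5p and mmu-miR-93-5p lie below 0 on this scaling, a sign that turns for all 3 without normalization.

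The tissue difference was also taken within each eye condition. Between control retina and control sclera, 2 of the 9 members were called against 50.6% of all miRNAs, both of them, mmu-miR-18b-5p and mmu-miR-20a-3p, miRNAs without a detected sclera signal. That count ran from 0 to 4 when 1 array was left out, and leaving out any of 11 of the 12 arrays moved it by more than 1.5 times. Between myopic retina and myopic sclera, 3 of the 9 were called, mmu-miR-18a-3p, mmu-miR-18b-5p and mmu-miR-92a-3p, against 58.9% of all miRNAs. The first 2 of these had no detected sclera signal and passed the filter through the retina alone, so that only the call of mmu-miR-92a-3p rests on signals measured in both tissues. The log2 difference of mmu-miR-92a-3p was 0.94 in control eyes (limma adjusted p = 2.0e-04) and 1.20 in myopic eyes (adjusted p = 3.2e-05). That of mmu-miR-19b-3p was 0.98 and 0.94 (adjusted p = 0.0030 and 0.0032), and that of mmu-miR-17-3p was 0.87 and 0.46 (adjusted p = 0.0061 and 0.083). For mmu-miR-20a-5p it was -0.35 and -0.69 (adjusted p = 0.30 and 0.054). Whether the tissue difference itself differed between control and myopic eyes was not tested.

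Since the members of a cluster share a primary transcript, their ratio within an array asks whether they kept step, and a linear scaling of the arrays leaves it as it is. The signals of mmu-miR-19b-3p and mmu-miR-92a-3p can also come from the X chromosome cluster, so their ratios do not compare products of that transcript alone. A total of 14 such ratios were compared between the 6 retina and 6 sclera arrays by exact two-sided permutation of the log2 ratios, with p-values adjusted over the 14. The pairs were chosen after the values had been seen. The smallest p-value the 924 splits allow is 0.0022, or 0.0038 after adjustment. The splits treat the arrays as exchangeable, although both eyes and both tissues came from the same animals. These p-values therefore do not measure the spread among animals. Relative to mmu-miR-20a-5p, the other 4 cluster members detected everywhere were higher in the retina. The tissues did not overlap in any of the 4 ratios. These 4 share mmu-miR-20a-5p as denominator, so they are not separate lines of evidence. How often ratios among other miRNAs detected on all arrays kept the tissues apart was not counted. The 4 ratios therefore only describe the members.

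The ratio of mmu-miR-92a-3p to mmu-miR-20a-5p was 5.15, 4.14 and 3.36 in the control retina, 4.59, 4.47 and 4.45 in the myopic retina, 1.69, 1.68 and 2.66 in control sclera and 1.77, 1.60 and 1.61 in myopic sclera. The tissues differed 2.39-fold (exact permutation, adjusted p = 0.0038). Control sclera 3 was the highest sclera array and still lay below the lowest retina array. The ratio of mmu-miR-19b-3p to mmu-miR-20a-5p was 4.98, 4.58 and 4.27 in the control retina, 4.62, 4.79 and 5.00 in the myopic retina, 2.18, 2.28 and 1.81 in control sclera and 2.30, 2.11 and 2.14 in myopic sclera, a 2.21-fold difference (exact permutation, adjusted p = 0.0038). The ratios were tight within each tissue, and the gap between the tissues was wider than the spread of either. The difference was 2.72-fold for mmu-miR-19a-3p and 3.45-fold for mmu-miR-17-3p relative to mmu-miR-20a-5p (both exact permutation, adjusted p = 0.0038). The mmu-miR-17-3p signal summed 2 probes in the retina and 1 in the sclera, and that of mmu-miR-19a-3p summed 1 of 2 in control sclera 3. This enters the ratios. Over all settings their log2 differences ran from 0.47 to 1.52 for mmu-miR-19a-3p and from 0.42 to 1.88 for mmu-miR-17-3p. Under each of the 17 other settings tried these 4 ratios kept their direction and an adjusted p-value under 0.05.

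Among the remaining 4 members the differences were smaller. The ratio of mmu-miR-17-3p to mmu-miR-92a-3p was 1.44-fold higher in the retina (exact permutation, adjusted p = 0.0038). That of mmu-miR-19a-3p to mmu-miR-19b-3p was 1.23-fold higher (exact permutation, adjusted p = 0.010). That of mmu-miR-17-3p to mmu-miR-19b-3p was 1.56-fold higher (exact permutation, adjusted p = 0.015, and 0.0038 to 0.33 over all settings). Its call was lost at 0.087 when labels were permuted within eye condition and pool number. All 3 ratios turned their direction when quantile-normalized, authors' or normexp values were used. The difference in probes summed enters all 3 as well. No difference was detected for mmu-miR-19a-3p to mmu-miR-92a-3p (log2 difference 0.19, adjusted p = 0.96), mmu-miR-19b-3p to mmu-miR-92a-3p (-0.12, adjusted p = 0.60) or mmu-miR-17-3p to mmu-miR-19a-3p (0.34, adjusted p = 0.42).

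**Figure D3:**
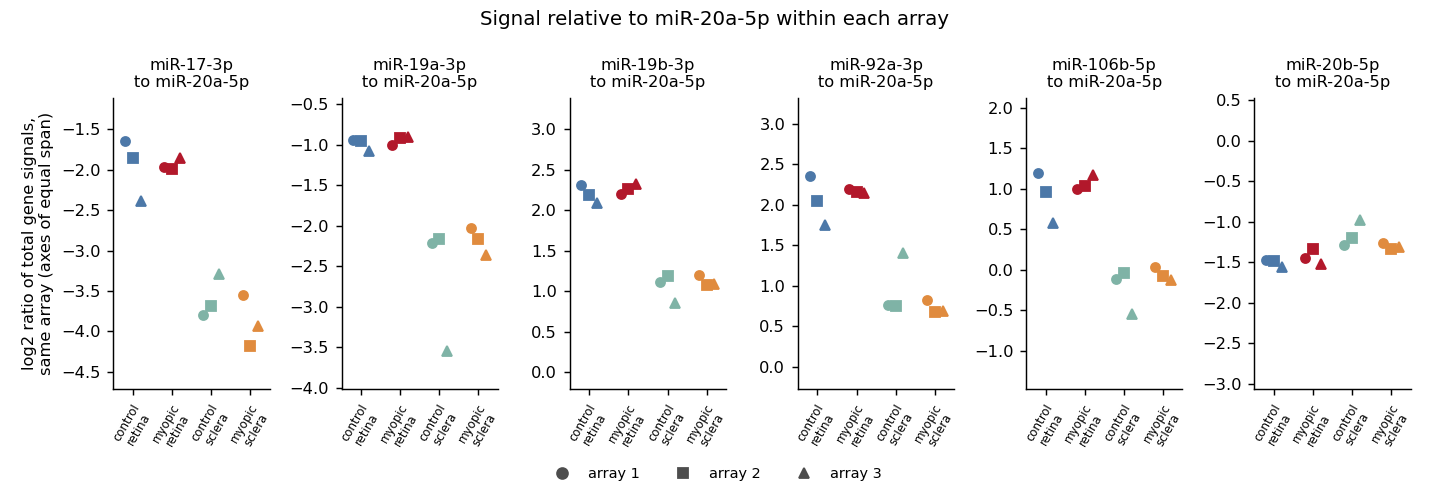
Log2 ratio of the total gene signals of 4 cluster members and 2 relatives to that of mmu-miR-20a-5p on the same array, 1 point per array and all axes of equal span. Retina and sclera arrays do not overlap in any panel: the first 5 ratios are higher in the retina, by 2.20-fold to 3.45-fold, and that of mmu-miR-20b-5p is 1.18-fold lower.

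The relatives on the paralogous clusters were listed by seed and cluster, and 11 of the 19 listed names were on the array, of which 7 were detected. Of these 7, 2 were called higher and 2 called lower in the retina, beside 34.8% and 26.2% of all miRNAs. The 2 called higher, mmu-miR-106b-3p and mmu-miR-32-5p, were not detected in the sclera and passed the filter through the retina alone. Among miRNAs with the miR-17 seed, mmu-miR-20b-5p overlapped between the tissues like mmu-miR-20a-5p. Its signal was 90.2, 117 and 176 in the control retina, 125, 174 and 89.8 in the myopic retina, 108, 120 and 40.1 in control sclera and 66.1, 70.8 and 65.8 in myopic sclera. Its normalized log2 difference between retina and sclera was -1.10 (standard error 0.18, limma adjusted p = 3.8e-04), but it was -0.36 with the 75th percentile of detected miRNAs and 0.75 without normalization. That of mmu-miR-93-5p was -0.54 (standard error 0.11, limma adjusted p = 0.0015), and it too turned, to 0.11 with the 75th percentile of detected miRNAs and 1.22 without normalization, where its signal was higher on each retina array than on any sclera array. From the same cluster as mmu-miR-93-5p, mmu-miR-106b-5p had a difference of 0.67 (standard error 0.14, limma adjusted p = 0.0017), which was above 0 under all 4 scalings, from 0.25 to 2.13.

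Set against mmu-miR-20a-5p on the same array, mmu-miR-106b-5p was 2.20-fold higher and mmu-miR-20b-5p 1.18-fold lower in the retina (both exact permutation, adjusted p = 0.0038). The ratio of mmu-miR-93-5p to mmu-miR-20a-5p differed by 0.23 on the log2 scale, with overlapping tissues (adjusted p = 0.11). A shared seed thus went with different tissue ratios. Likewise mmu-miR-92a-3p was 1.25-fold higher in the retina relative to mmu-miR-25-3p, which has the same seed (exact permutation, adjusted p = 0.0038), while mmu-miR-25-3p itself was 0.59 higher on the log2 scale (standard error 0.08, limma adjusted p = 1.4e-04), a value that was 0.06 with the 75th percentile of all names. Of the same seed, mmu-miR-92b-3p had weak signals of 4.04 to 20.1 where detected, on 5 retina and 6 sclera arrays, and the tissues overlapped. It was called lower in the retina after quantile normalization (log2 difference -3.41, standard error 0.89, limma adjusted p = 0.0061), and the difference was -1.02 and not called without normalization.

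The miR-18 miRNAs differed in where they were detected. The X-linked mmu-miR-18b-5p was detected in the retina and on none of the 6 sclera arrays, whereas mmu-miR-18a-5p, which has the same seed, was detected in both tissues. The signal of mmu-miR-18b-5p was 85.2 and 13.9 in control retina 1 and 2 and not detected in control retina 3, and it was 148, 194 and 91.0 in the myopic retina. The 3 myopic arrays lay above the 3 control arrays, though the lowest myopic array was close to control retina 1. The spread was wider among the control arrays than among the myopic ones.

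Against the detection limit of the sclera arrays, mmu-miR-18b-5p was at least 5.74-fold higher in the retina over all 6 pools (5 of 6 detected). The bound was 21.6-fold for the myopic retina against the myopic sclera (3 of 3 detected) and 1.52-fold for the control retina against the control sclera (2 of 3 detected). For these bounds an undetected sclera signal was put at the lowest detected signal of its array, whereas limma used a fixed floor of 0.5 intensity units. The miRNA passed the detection filter through the retina alone and all its sclera values sat at that floor, so its limma call follows from filter and floor and is not used as support.

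The array carried 4 probes for mmu-miR-18b-5p, of 16 to 19 bases, and all of them showed the pattern. The mean processed signal of the 19-base probe was 73.3, 12.6 and 4.98 in the control retina and 129, 172 and 84.4 in the myopic retina, and on the sclera arrays it lay between -2.25 and -0.69, where background subtraction leaves values around 0. Control retina 3 was thus just above the sclera arrays on this probe. The signal was therefore carried by no single probe.

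The partner mmu-miR-18a-5p was weak everywhere. Its signal was not detected in control retina 1 and was 9.76 and 14.8 in control retina 2 and 3, 7.82, 10.6 and 7.70 in the myopic retina, 11.4 and 12.9 in control sclera 1 and 2, not detected in control sclera 3, and 8.01, 8.19 and 7.80 on the myopic sclera arrays. The groups overlapped in the unnormalized signal. On the 19-base probe it ranged from 3.23 to 22.4 over the 12 arrays, while the 18-base probe did not exceed 6.03. After normalization its log2 difference between retina and sclera was -1.81 (standard error 1.18, limma adjusted p = 0.19). Without control sclera 3, where it was not detected, it passed at -2.75 (adjusted p = 0.021, within a range of 6.4e-05 to 0.96 over all settings). Control retina 1, in which mmu-miR-18b-5p was the brightest of the control arrays, was the retina array on which mmu-miR-18a-5p was not detected.

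**Figure D4:**
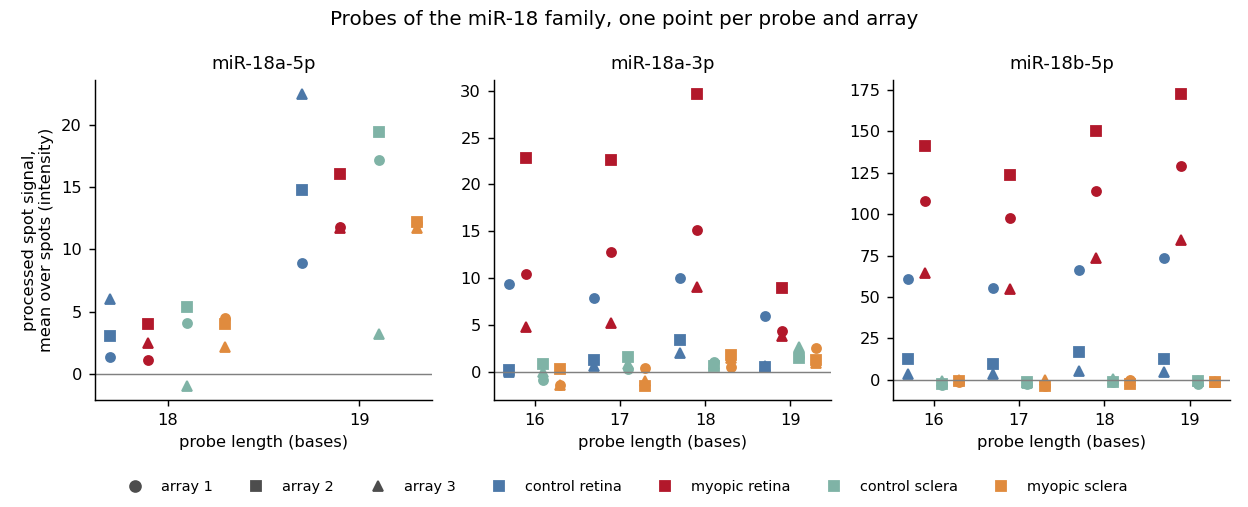
Mean processed spot signal (intensity) of each probe for mmu-miR-18a-5p, mmu-miR-18a-3p and mmu-miR-18b-5p on the 12 arrays, by probe length. All 4 mmu-miR-18b-5p probes are high on the 3 myopic retina arrays and control retina 1 and near 0 on the sclera arrays, while the 19-base mmu-miR-18a-5p probe stays between 3.23 and 22.4 in both tissues.

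The opposite arm of the chromosome 14 hairpin, mmu-miR-18a-3p, was detected on 2 arrays only, at 12.7 and 24.8 in myopic retina 1 and 2. It was not detected in myopic retina 3, in the control retina or in the sclera. Its 4 probes gave mean processed signals of 3.76 to 29.6 on the 3 myopic retina arrays and of 5.95 to 9.98 in control retina 1, and on the sclera arrays they ranged from -1.50 to 2.63. Control retina 1 and myopic retina 3 thus lay above the sclera range on all 4 probes without a detection call. The mean of the retina arrays stayed under the detection limit of the sclera arrays, and no fold is given.

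Among miRNAs of the whole array, those most like mmu-miR-18b-5p over the 12 arrays were mmu-miR-16-1-3p, mmu-miR-669o-5p and mmu-miR-15a-3p, all with a Pearson correlation of 1.00 of the normalized log2 values among 427 candidates. The correlation owes much to the shared floor, since 12 other miRNAs were detected on the same 5 arrays and on no other. On those 5 arrays the ratio of mmu-miR-18b-5p to mmu-miR-16-1-3p was 0.577 and 0.593 in control retina 1 and 2 and 0.652, 0.614 and 0.600 in the myopic retina. It thus varied 1.13-fold while the signal of mmu-miR-18b-5p itself ran from 13.9 to 194. The ratio to mmu-miR-15a-3p ran from 0.551 to 0.728 and that to mmu-miR-669o-5p from 0.751 to 0.957.

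Its neighbour on the X chromosome did not keep step with it. The ratio of mmu-miR-18b-5p to mmu-miR-20b-5p was 0.944 and 0.118 in control retina 1 and 2 and 1.18, 1.12 and 1.01 in the myopic retina, a 10.0-fold range. In control retina 3 mmu-miR-20b-5p was at 176, the highest of the 12 arrays, while mmu-miR-18b-5p was not detected. Relative to mmu-miR-20a-5p the range was 10.5-fold. Over the 5 arrays the Pearson correlation of the log2 signals was 1.00 with mmu-miR-16-1-3p and 0.30 with mmu-miR-20b-5p, given as a description over arrays that share animals and scaling.

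**Figure D5:**
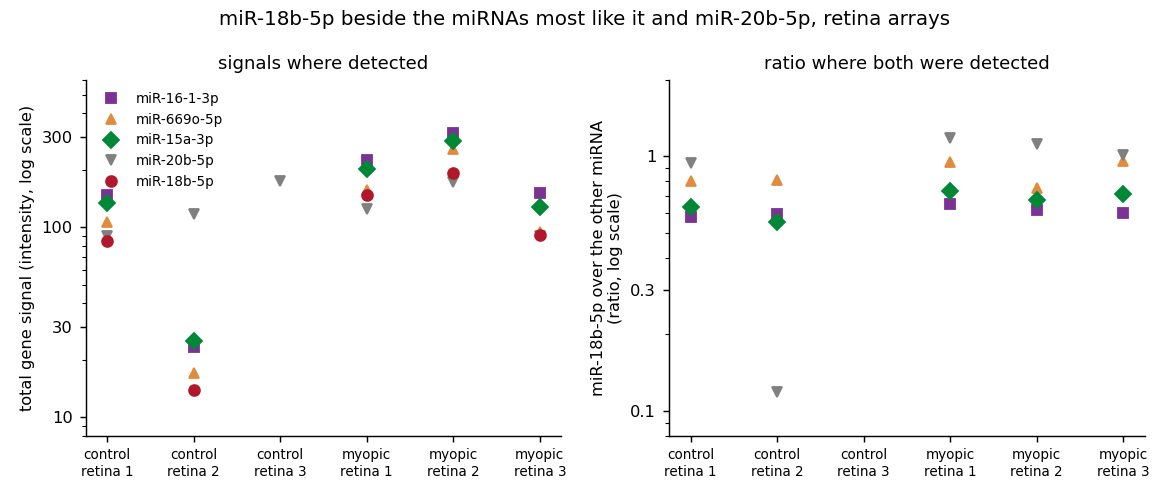
Left, total gene signal (intensity, log scale) on the 6 retina arrays of mmu-miR-18b-5p, the 3 miRNAs most like it and its X chromosome neighbour mmu-miR-20b-5p. Right, ratio of mmu-miR-18b-5p to each of them (log scale) on the 5 arrays that detected it, which stays within 0.551 to 0.957 for the 3 and spans 0.118 to 1.18 for mmu-miR-20b-5p.

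The remaining arms were at or below detection. Low signals of mmu-miR-20a-3p, at 3.68 and 9.29 in control retina 2 and 3 and 3.42, 4.92 and 3.85 in the myopic retina, were seen on 5 retina arrays and on no sclera array. Its retina mean was below the detection limit of the sclera arrays, so no fold is given, and its limma call follows from the filter and the floor. Not detected on any array were mmu-miR-17-5p, mmu-miR-19a-5p and mmu-miR-92a-2-5p. Of these mmu-miR-17-5p, the arm for which the cluster is named, had probes of only 12 and 13 bases, written 5′ to 3′ as DNA:
shorter mmu-miR-17-5p probe: ctacctgcactg
longer mmu-miR-17-5p probe: ctacctgcactgt
These bases fit mmu-miR-106a-5p equally well, which differs from mmu-miR-17-5p by U10A outside the probed stretch. The longer probe gave mean processed signals of 3.65 to 10.9 in the retina and of -0.52 to 4.91 in the sclera. Whether the short probes account for the absence of mmu-miR-17-5p from the detection calls was not tested, and nothing is read from it about the level of the miRNA.

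In the sclera, form deprivation was compared over 3 myopic and 3 control arrays. Of the 9 members 0 were called by limma, as were 0 of the 443 miRNAs (0%), and no member reached an unadjusted p-value under 0.05, against 13 of the 443 miRNAs. The linear model without moderation of the spread, which the study's methods describe, also called 0 members. The log2 difference, myopic minus control, was -0.23 for mmu-miR-92a-3p (95% confidence interval -0.54 to 0.08), 0.14 for mmu-miR-19b-3p (-0.35 to 0.63) and 0.03 for mmu-miR-20a-5p (-0.61 to 0.68). It was -0.23 for mmu-miR-17-3p (-0.71 to 0.26) and 0.34 for mmu-miR-19a-3p (-0.52 to 1.19). The value for mmu-miR-18a-5p was 1.87, with an interval from -1.89 to 5.64, and came from control sclera 3 alone, since it was -0.01 without that array. The other 3, mmu-miR-18a-3p, mmu-miR-18b-5p and mmu-miR-20a-3p, were not detected on any sclera array. The intervals of mmu-miR-92a-3p, mmu-miR-19b-3p, mmu-miR-17-3p and mmu-miR-20a-5p stay within a 2-fold change in either direction.

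In the retina the same contrast had helped to choose the group and is given as a description. The number of members called, 0 of 9, stands beside 0.226% of the 443 miRNAs, and nothing is read from it. For mmu-miR-18b-5p the normalized log2 difference, myopic minus control, was 3.36 (standard error 1.32), higher in the myopic retina in 3 of 3 pairs of equal number, with pair differences of 0.61, 2.42 and 7.05. The last of these is set by the floor in control retina 3. For mmu-miR-18a-3p the difference was 2.35 (standard error 0.79), higher in 2 of 3 pairs with both arrays not detected in the third. All its control values sat at the floor, although its probes in control retina 1 lay above the sclera range, so no fold is given.

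The other members stayed closer together. The log2 difference was 0.03 for mmu-miR-92a-3p (standard error 0.14), 0.10 for mmu-miR-19b-3p (0.22), -0.31 for mmu-miR-20a-5p (0.28) and -0.37 for mmu-miR-19a-3p (0.38). It was -0.63 for mmu-miR-17-3p (0.21), which was lower in the myopic retina in 3 of 3 pairs after quantile normalization, while the median over those 246 miRNAs was -0.21. The signal of mmu-miR-17-3p as deposited was higher in the myopic retina in 2 of 3 pairs, and without normalization its difference was -0.025. For mmu-miR-18a-5p and mmu-miR-20a-3p, each not detected in control retina 1, it was -0.61 (1.67) and -0.86 (0.89). Control retina 1 was also the control array with the brightest mmu-miR-18b-5p. Within the arrays, the 14 ratios described above moved by between -0.09 and 0.16 on the log2 scale from the control to the myopic retina.

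Each member's nearest miRNAs over the 12 arrays differed. By Pearson correlation of the normalized log2 values, mmu-miR-92a-3p was most like mmu-miR-16-5p (0.98) and mmu-miR-30c-5p (0.98), and mmu-miR-19b-3p most like mmu-miR-872-5p (0.98) and mmu-miR-15a-5p (0.98). The closest to mmu-miR-19a-3p was mmu-miR-192-5p (0.94) and the closest to mmu-miR-17-3p was mmu-miR-30a-3p (0.91). The closest to mmu-miR-20a-5p were mmu-miR-184-3p (0.94) and mmu-miR-31-5p (0.93). For each of these 5 members, none of the 3 closest was among the 3 closest to another of the 5. These correlations are over 12 arrays and 237 candidates detected on all of them, and they largely carry the tissue difference. For mmu-miR-18a-5p the closest of the 427 was mmu-miR-31-3p (0.97), for mmu-miR-20a-3p it was mmu-miR-1983 (0.95), and for mmu-miR-18a-3p, with 2 detecting arrays, mmu-miR-871-5p (1.00).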

How the data were processed

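The authors hybridised total RNA from pools of 3 eyes to Agilent mouse miRNA arrays and deposited the scanner output, whose background-subtracted total gene signal is an intensity on a linear scale (Feature Extraction 11.0.1.1 per the file headers). The deposited value table holds the authors' log2 values, and the submitters' processing notes name Partek 6.6. Both were taken as deposited. Here, signals under 0.5 were set to 0.5, arrays were quantile normalized over the 696 mouse names and log2 transformed. The 443 miRNAs detected on at least 1 array were fitted with limma 3.58.1 in R 4.3.3, with 4 groups of 3 arrays and 8 residual degrees of freedom. P-values were two-sided and adjusted by Benjamini-Hochberg over the 443. Ratios used unnormalized signals and an exact permutation test. Tables and figures were made with Python 3.11.15. The procedure was tested on simulated data. Precision is limited by the 3 arrays of each group.

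The members, relatives, markers and tests were chosen with earlier results of these data known. All members and listed relatives detected on any array, and the 3 miRNAs most correlated with each member, could be named. Same-numbered pools shared a slide, and position on the slide and group cannot be told apart. Same-numbered arrays did not deviate together throughout: over 246 miRNAs the correlation between control and myopic arrays was 0.38, -0.46 and 0.59 in the retina and -0.14, -0.16 and -0.00 in the sclera, so the fit had no replicate block. The limma p-values thus treat pools of both eyes and both tissues of the same animals as independent, and do not measure the spread among animals. Alternatives covered background correction, scaling, floor, filter, value table, block, model, array weights and leaving out each array. Leaving out control retina 1 with control sclera 3 and the ratio tests were added after the values had been seen.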

Additional observations from a re-analysis of the deposited data

How the results depend on the processing

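The number of members called between retina and sclera, 3, was 6 with scaling by the 75th percentile of detected miRNAs or no normalization, 5 with array weights, 1 with miRNAs detected on all arrays and 0 with normexp, and 3 to 4 when 1 array was left out. In control eyes, 2 became 6 with that scaling or no normalization, 4 with the authors' values or array weights, 1 without moderation of the spread, 0 with no filter, miRNAs detected on all arrays or normexp, and 0 to 4 when 1 array was left out. In myopic eyes, 3 became 6 with that scaling, 7 without normalization, 5 with processed spot signals, array weights or without both control retina 1 and control sclera 3, 1 with miRNAs detected on all arrays, 0 with normexp, and 2 to 4 when 1 array was left out. Fewer miRNAs are tested when detection on all arrays is required. For the other changes the cause was not tested. The sclera contrast had 0 called members under every setting tried. In the retina contrast, which helped to choose the members so that its calls support nothing, 0 became 4 with array weights, 3 without both arrays, 2 without control retina 1 and 1 without myopic retina 3.

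Without normalization the tissue difference of mmu-miR-20a-5p was 0.99, 0.96 in control and 1.02 in myopic eyes, and that of mmu-miR-18a-5p was 0.05. Scaled by the 75th percentile of all names, mmu-miR-19b-3p was at -0.0076 in myopic eyes. In the sclera contrast without control sclera 3, alone or with control retina 1, mmu-miR-18a-5p was at -0.013, mmu-miR-19a-3p at -0.11, mmu-miR-19b-3p at -0.11 and mmu-miR-20a-5p at -0.10. When 1 array was left out, these ranged from -0.013 to 2.87, -0.11 to 0.58, -0.11 to 0.27 and -0.10 to 0.16. With array weights mmu-miR-19a-3p was at -0.067, mmu-miR-19b-3p at -0.067 and mmu-miR-20a-5p at -0.045, without normalization mmu-miR-19b-3p at -0.037 and mmu-miR-20a-5p at -0.11, and mmu-miR-20a-5p was at -0.062 with the 75th percentile of detected miRNAs and -0.0083 with normexp.

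With quantile-normalized, authors' and normexp values in turn, the log2 tissue difference in ratio was -0.30, -0.35 and -0.40 for mmu-miR-17-3p to mmu-miR-19b-3p, -0.41, -0.49 and -0.48 for mmu-miR-17-3p to mmu-miR-92a-3p, -0.53, -0.59 and -0.35 for mmu-miR-19a-3p to mmu-miR-19b-3p, and -0.64, -0.73 and -0.44 for mmu-miR-19a-3p to mmu-miR-92a-3p. The last was -0.15 to 0.27 when 1 array was left out, and was -0.15 without control sclera 3. With normexp, mmu-miR-17-3p to mmu-miR-19a-3p was -0.046, and mmu-miR-93-5p to mmu-miR-20a-5p was -0.022 with quantile normalization and -0.0090 with normexp. In the fit with a replicate block for pool number, the members called stayed at 3, 2, 3, 0 and 0 in the 5 contrasts, and mmu-miR-20a-5p had an adjusted p of 0.056 between retina and sclera. With labels permuted within eye condition and pool number, 9 of 14 ratios passed, that of mmu-miR-17-3p to mmu-miR-19b-3p being lost. The 4 to mmu-miR-20a-5p had an adjusted p of 0.049 (exact permutation, smallest unadjusted p 0.031). Labels were still permuted separately for the eyes of the same animals. The number of ratios that passed, 10, was 8 to 13 otherwise.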
